A study of Homo sapiens with 24 samples.

Results

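The hnRNP and SR splicing proteins are 2 families of RNA-binding proteins that act on nascent transcripts. Members were all protein-coding genes whose symbol begins with HNRNP, or with SRSF and a digit, and to which a probe of the array could be matched through its RefSeq accession. The annotation holds 38 such genes. A probe was matched for 34 of them, 22 HNRNP and 12 SRSF genes, with 63 probes in all, out of 21239 genes tested. HNRNPA1L3, HNRNPCL2, HNRNPCL3 and HNRNPCL4 had no matched probe. All 34 genes passed the filter on dim spots.

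SR proteins carry a domain rich in arginine and serine. They typically bind exons and recruit the spliceosome, so that the exon is kept in the mRNA. hnRNPs coat pre-mRNA, and many of them oppose exon inclusion or act on export, transport, translation and decay of mRNA. Both families also control their own transcripts, since many of the genes contain exons that, when included, send the mRNA to decay. Neurons depend on several members, for example for the transport of mRNA along neurites.

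RNA was measured in 3D aggregates of LUHMES, a line from human fetal midbrain whose growth is held by a switchable oncogene and which becomes dopaminergic neurons once this is shut off, on 24 one-colour Agilent arrays. Aggregates received the solvent DMSO or rotenone, an inhibitor of complex I of the mitochondrial respiratory chain, from day 7 of differentiation. Rotenone was given at 50 nM for 12 h, 50 nM for 24 h or 100 nM for 24 h, and RNA was taken on day 8 or on day 15, the latter following wash-out and a recovery of 7 days. This gave 8 groups of 3 arrays, and the 3 rotenone groups of a day shared the DMSO arrays of that day. All groups came from 1 line, and the replicates are described as wells, so p values measure the spread between these wells, which may be technical. In bulk aggregates, fewer cells of a type and less RNA per cell cannot be told apart.

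Of 8 neuronal markers, 8 were well above background on all 24 arrays, and of 12 markers of dopaminergic neurons 8 were. TH, the enzyme that makes the dopamine precursor L-DOPA, had a mean log2 signal of 9.78 in DMSO on day 8 and 6.84 on day 15. NR4A2, also among the 12, went the other way, from 6.18 to 7.76. None of the 5 astrocyte, 3 microglial or 5 fibroblast markers tested was well above background on all arrays, whereas OLIG2, a marker of the oligodendrocyte lineage, had a mean log2 signal of 9.36 in DMSO on day 8 and 5.36 on day 15. Of spots, 50.9% to 82.4% were well above background, most on slide 1 (67.3% to 82.4%). Day 15 arrays of 100 nM varied most around their group means, with residual SDs of 0.28, 0.31 and 0.45 for replicates 1, 2 and 3, against 0.20 to 0.30 on the other arrays. The scan of day 15 DMSO replicate 1 bears a name that gives 12 h and does not name DMSO, so its group rests on its label. The other DMSO scans name 24 h, so the 12 h groups were set against a 24 h control.

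For 33 of 34 members at least 1 probe stood well above background on each of the 24 arrays, and no member was saturated. HNRNPCL1, an intronless relative of HNRNPC, was well above background on 9 of 24 arrays, so its values are near the limit of the assay. All values below are log2 signals after normalization, and all changes are log2 fold changes averaged over the probes of a gene. A gene was called at a fold change over 1.5, which is 0.58 on the log2 scale, with a Benjamini-Hochberg adjusted p under 0.05 over all genes tested (limma).

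With 100 nM for 24 h on day 8, 29 of 34 members were below DMSO, and their median change was -0.36, while 53.5% of all genes tested were below DMSO with a median of -0.02. In 19 of 34 members, against 15.8% of all genes, the 3 exposed arrays all lay below the 3 DMSO arrays. Called members numbered 6 of 34, all lower: SRSF3, SRSF10, SRSF2, HNRNPM, HNRNPA2B1 and HNRNPH1. Over all genes, 3.45% were called, 2.02% lower. Whatever the fold change, 15 members fell and 1, HNRNPC, rose at an adjusted p under 0.05, against 5.41% and 4.07% of all genes. Among the 12890 genes that were well above background on all arrays, 2.76% were called lower, 8.25% fell at an adjusted p under 0.05 and the median change was -0.03. These counts describe the list, which was chosen with results of these data known, and no test of the list was made.

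**Figure D1:**
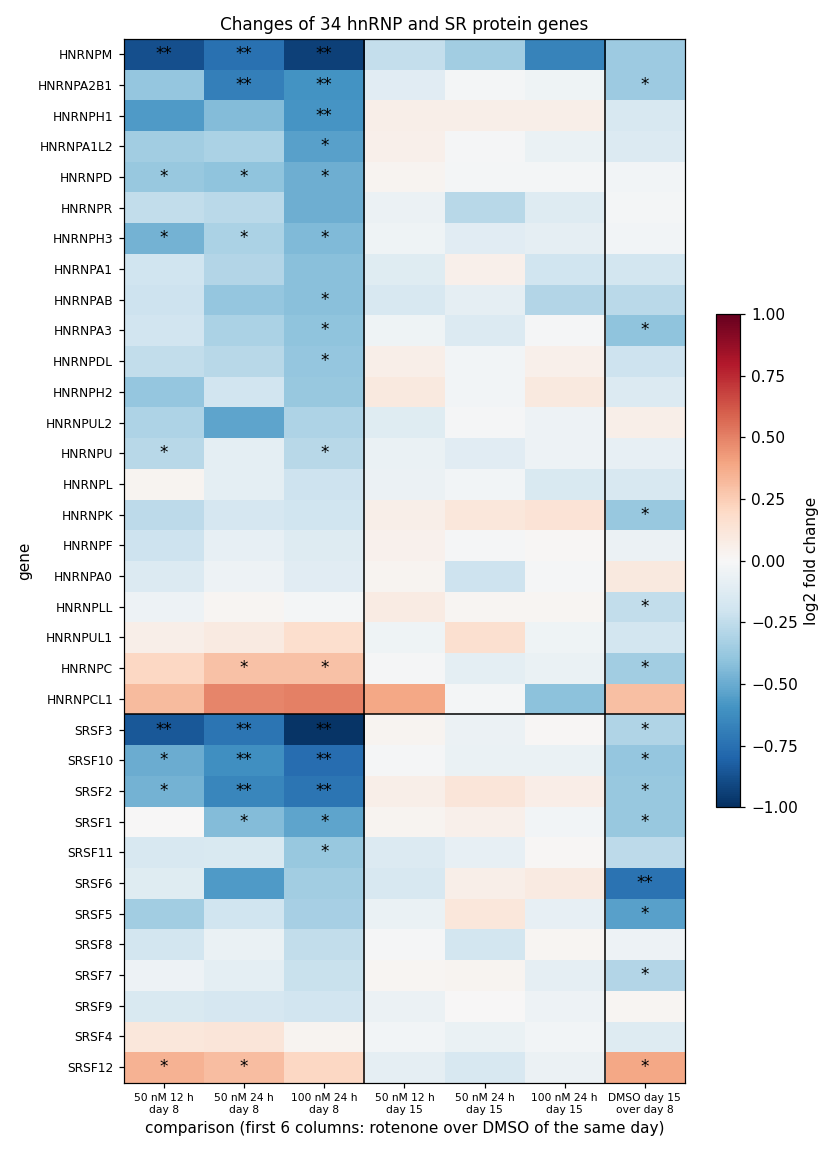
Log2 fold changes of the 34 genes (rows; HNRNP above the line, SRSF below, each ordered by the change with 100 nM on day 8) in 7 comparisons (columns), from blue (lower) to red (higher). One star marks an adjusted p under 0.05 and 2 stars a called gene; 6 genes have 2 stars in the column of 100 nM on day 8 and none has a star in the 3 rotenone columns of day 15.

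Promoters are shown for members called lower with 100 nM on day 8. RefSeq promoter entries (GRCh38.p14), each from 250 bases before to 50 bases after the start of the gene, were at hand for 32 of 34 members; SRSF2 and HNRNPA1 had no entry. The 100 bases before the start are printed here, 5′ to 3′ on the strand of the gene, with every match to a searched motif in capitals. The intervals are chr6:36594262-36594361 (plus strand) for SRSF3, chr1:23980328-23980427 (minus strand) for SRSF10, chr19:8444875-8444974 (plus strand) for HNRNPM and chr7:26200747-26200846 (minus strand) for HNRNPA2B1. The HNRNPA2B1 stretch holds no match. HNRNPH1 has several annotated starts and is not shown.
SRSF3: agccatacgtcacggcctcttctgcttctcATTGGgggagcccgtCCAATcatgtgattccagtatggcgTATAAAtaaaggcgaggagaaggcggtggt
SRSF10: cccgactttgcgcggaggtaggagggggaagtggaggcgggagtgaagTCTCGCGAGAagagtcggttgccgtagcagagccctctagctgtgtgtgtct
HNRNPM: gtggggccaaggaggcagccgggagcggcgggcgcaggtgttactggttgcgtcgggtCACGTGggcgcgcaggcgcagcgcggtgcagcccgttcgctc
HNRNPA2B1: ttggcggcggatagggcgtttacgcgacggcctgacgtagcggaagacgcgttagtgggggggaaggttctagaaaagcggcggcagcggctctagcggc

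Motifs were searched on both strands of the whole 300 bases. A gene with several annotated starts, such as HNRNPH1, was counted if any of its entries held the motif, so it had more chances of a match. SRSF3 held a TATA box (TATAAA) and CCAAT boxes in both orientations before its start. TATAAA was found in 6 of 32 members (18.8%) and in 12.4% of 15843 protein-coding genes with an entry, and CCAAT in 20 of 32 (62.5%) and 42.1%. SRSF10 held the 10-base palindrome in capitals in its line, found also in HNRNPK and HNRNPH3, hence in 3 of 32 members (9.38%) and in 0.726% of coding genes. HNRNPM held an E-box (CACGTG), as did 7 of 32 members (21.9%) and 10.9% of coding genes. The GC box GGGCGG was present in 22 of 32 (68.8%) and 64.3%, and the ETS motif CCGGAAGT in 3 of 32 (9.38%) and 6.97%. The CRE motif TGACGTCA and the longer consensus motifs of NRF1 and YY1 were in 0 of 32, and in 3.00%, 1.99% and 1.58% of coding genes. The palindrome and the E-box occurred in members that fell with 100 nM on day 8 at an adjusted p under 0.05 in limma. They also occurred in members that did not pass this threshold, such as HNRNPK and HNRNPH2. The means of these 2 were lower too, going from 11.63 in DMSO to 11.43 and from 10.47 to 10.09.

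SRSF3 is the smallest SR protein and links splicing to mRNA export. Its log2 signal was 12.23, 12.15 and 12.08 on the 3 DMSO arrays of day 8 (mean 12.15 ± 0.07, SD, n = 3). The arrays of 100 nM for 24 h gave 11.27, 11.15 and 11.11, those of 50 nM for 24 h 11.48, 11.49 and 11.31, and those of 50 nM for 12 h 11.15, 11.39 and 11.36. All 9 exposed arrays lay below all 3 DMSO arrays. With 100 nM the gene was 1.97-fold lower (log2 change -0.98, SE 0.10, adjusted p 4.1e-06), which left 50.8% of the DMSO level. It also fell with 50 nM for 24 h (-0.73, SE 0.10, adjusted p 0.00011) and for 12 h (-0.85, SE 0.10, adjusted p 4.4e-05). The differences within slides 1, 2 and 3 were -0.96, -1.01 and -0.97 for 100 nM.

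SRSF10, which represses splicing when it is dephosphorylated, had log2 signals of 9.84, 9.69 and 9.67 in DMSO on day 8. With 100 nM they were 8.88, 9.04 and 8.99, with 50 nM for 24 h 9.12, 9.13 and 9.12, and with 50 nM for 12 h 9.19, 9.23 and 9.29. No exposed array reached the lowest DMSO array. The change was -0.76 with 100 nM (SE 0.07, adjusted p 2.6e-06), -0.61 with 50 nM for 24 h (SE 0.07, adjusted p 3.5e-05) and -0.50 with 50 nM for 12 h (SE 0.07, adjusted p 0.00042), the last below the fold change required for a call.

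SRSF2, or SC35, an activator of exon inclusion that also marks nuclear speckles, measured 11.44, 11.24 and 11.28 in DMSO on day 8. It measured 10.59, 10.58 and 10.59 with 100 nM, 10.59, 10.77 and 10.67 with 50 nM for 24 h, and 10.99, 10.78 and 10.79 with 50 nM for 12 h. Again the DMSO arrays lay above all 9 exposed arrays. The log2 change was -0.73 with 100 nM (SE 0.10, adjusted p 7.1e-05), -0.65 with 50 nM for 24 h (SE 0.10, adjusted p 0.00032) and -0.47 with 50 nM for 12 h (SE 0.10, adjusted p 0.0065).

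HNRNPM binds GU-rich RNA and affects alternative splicing of many neuronal and epithelial transcripts. It was read by a single probe, A_33_P3242919, which was well above background on all 24 arrays. On day 8 this probe gave 7.37, 7.34 and 7.09 in DMSO, 6.28, 6.43 and 6.31 with 100 nM, 6.33, 6.71 and 6.51 with 50 nM for 24 h, and 6.36, 6.51 and 6.28 with 50 nM for 12 h. The DMSO arrays were the 3 highest of the 12. The change was -0.93 with 100 nM (SE 0.21, adjusted p 0.0078), -0.75 with 50 nM for 24 h (SE 0.21, adjusted p 0.034) and -0.88 with 50 nM for 12 h (SE 0.21, adjusted p 0.017). Without the correction of slide 1 by ComBat the sizes were -0.91, -0.72 and -0.87 but the calls were lost, with adjusted p values of 0.60, 0.81 and 0.78. Leaving out DMSO replicate 1 or 2, or replicate 1 or 3 of the exposed group, ended the call for 50 nM for 24 h (adjusted p 0.085 to 0.16) and for 12 h (0.051 to 0.075), while no single array did so for 100 nM.

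HNRNPA2B1 carries mRNAs into neurites and is among the core hnRNPs. It measured 12.56, 12.66 and 12.68 in DMSO on day 8, 12.12, 11.84 and 12.14 with 100 nM, 11.89, 12.01 and 11.97 with 50 nM for 24 h, and 12.28, 12.20 and 12.24 with 50 nM for 12 h. Exposed and DMSO arrays did not overlap. It fell with 100 nM (-0.60, SE 0.12, adjusted p 0.0029) and 50 nM for 24 h (-0.68, SE 0.12, adjusted p 0.0013), whereas the change of -0.39 at 12 h had an adjusted p of 0.065, and of 0.022 when the slide, which holds 1 array of each group, entered as a replicate block in place of ComBat. Since 0.60 is close to the required 0.58, leaving out DMSO replicate 2 or 3 (-0.58 each) or 100 nM replicate 2 (-0.51) ended the call with 100 nM, at adjusted p values of 0.014, 0.014 and 0.017.

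HNRNPH1, which binds runs of G, measured 12.64, 12.85 and 12.31 in DMSO on day 8 and 12.06, 12.05 and 11.92 with 100 nM. The 2 groups did not overlap, but DMSO replicate 3 was the nearest to the exposed arrays. With 50 nM the arrays gave 12.30, 12.25 and 11.96 after 24 h and 12.09, 12.26 and 11.74 after 12 h. The change was -0.59 with 100 nM (SE 0.18, adjusted p 0.048), and -0.43 and -0.57 with 50 nM for 24 h and 12 h (adjusted p 0.18 and 0.077). With the slide as a replicate block the adjusted p values for 50 nM were 0.035 and 0.0098. That for 100 nM was 0.0049 (-0.59, SE 0.12), and the call held. The differences within slides 1, 2 and 3 were -0.58, -0.8 and -0.38 for 100 nM. The change is close to the required 0.58, and the call with 100 nM is weak. It was lost in 12 of 17 alternative analyses, and in the authors' own normalized values the change was -0.10 with an adjusted p of 0.70. Which probes the authors' value rests on was not worked out, so it may rest on other probes than the value here.

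**Figure D2:**
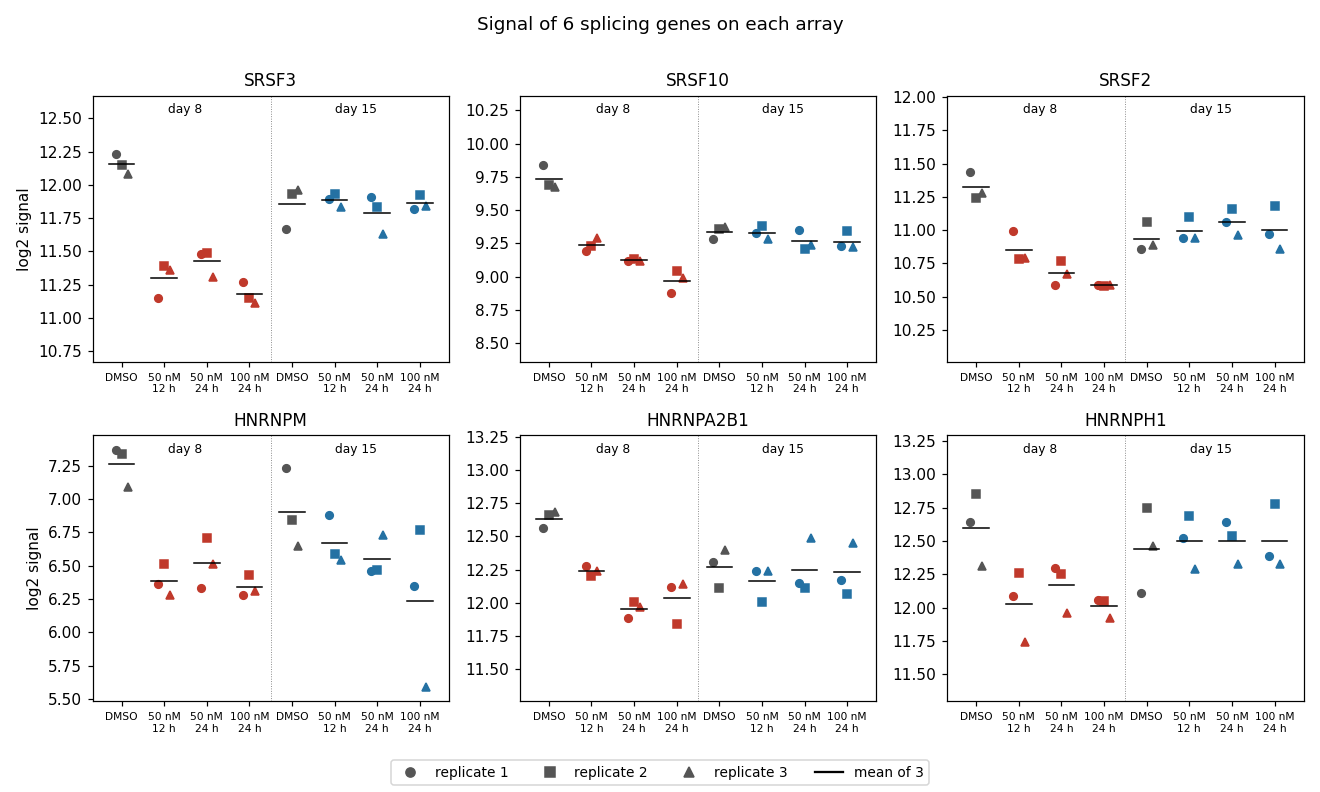
Log2 signal (y axis, a span of 2 units in each panel) of the 6 genes called with 100 nM on day 8, on each array of the 8 groups (x axis), with a symbol for each replicate and a line at the mean of 3. In all 6 panels the DMSO arrays of day 8 lie above those of 100 nM, while on day 15 the groups overlap.

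The other members that fell with 100 nM at an adjusted p under 0.05 stayed under the fold change required for a call. Among hnRNPs these were HNRNPD (-0.49, adjusted p 2e-04), also known as AUF1 and a regulator of the decay of AU-rich mRNAs, HNRNPH3 (-0.44), HNRNPAB (-0.42), HNRNPA3 (-0.40), HNRNPDL (-0.39), HNRNPU (-0.28) and HNRNPA1L2 (-0.54). HNRNPA1L2 is a near-identical copy of HNRNPA1, a repressor of exon inclusion, and its 5 probes cannot be assigned to 1 of the 2 genes with certainty; HNRNPA1 itself gave -0.42 with an adjusted p of 0.072 as the mean of a bright and a dim probe, of which the bright one fell. Among SR proteins these were SRSF1 (-0.53, adjusted p 0.0050), the founding member of the family, and SRSF11 (-0.38, adjusted p 0.029). HNRNPR gave -0.49 with an adjusted p of 0.14, and -0.47 with an adjusted p of 0.0026 with the slide as a replicate block.

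Among the brightest members, HNRNPK, SRSF5, SRSF9 and SRSF4 did not pass the test. HNRNPK, which binds C-rich RNA, changed by -0.20 with 100 nM on day 8 (adjusted p 0.39). SRSF5, SRSF9 and SRSF4 changed by -0.33, -0.19 and 0.03, with adjusted p values of 0.11, 0.60 and 0.92. HNRNPC rose by 0.29 (adjusted p 0.019): its DMSO arrays read 11.17, 11.13 and 11.05 and its 100 nM arrays 11.37, 11.51 and 11.34. SRSF12, an SR protein that can antagonize other members, rose with 50 nM for 24 h (0.31, adjusted p 0.033) and 12 h (0.35, adjusted p 0.021), and gave 0.21 with 100 nM (adjusted p 0.16).

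At 50 nM for 24 h, 5 of 34 members were called, all lower, against 2.80% of all genes (1.42% lower): SRSF3, SRSF10, SRSF2, HNRNPM and HNRNPA2B1. At an adjusted p under 0.05, 8 fell and 2 rose, against 4.36% and 3.66% of all genes. Among genes well above background on all arrays, 2.07% were called lower and 6.89% fell at that threshold. The median change of the members was -0.23, and 28 of 34 members were below DMSO against 52.9% of all genes. After 12 h of 50 nM, 2 were called, SRSF3 and HNRNPM, against 1.75% of all genes (0.923% lower). Here 7 fell and 1 rose at an adjusted p under 0.05, against 2.85% and 2.66% of all genes. Of the genes well above background on all arrays, 1.36% were called lower and 4.49% fell. The median of the members was -0.21, and 28 of 34 members were below DMSO against 51.5% of all genes. SRSF3, SRSF10, SRSF2, HNRNPM, HNRNPD and HNRNPH3 fell in all 3 comparisons at that threshold, though these share the DMSO arrays.

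The exposures were also compared with one another. Between 100 nM and 50 nM for 24 h, 0 members were called, as were 0.00% of all genes, and 3 of 34 had an unadjusted p under 0.05 in limma against 4.17% of all genes. These were SRSF3 (-0.25), SRSF11 (-0.23) and HNRNPU (-0.19), all lower with 100 nM. Of 34 members, 29 were lower with 100 nM than with 50 nM, against 52.3% of all genes, with a median of -0.10. Between 24 h and 12 h of 50 nM, 0 members were called against 0.226% of all genes, and 4 had an unadjusted p under 0.05 against 10.9%. SRSF6 (-0.45), SRSF1 (-0.43, 95% confidence interval -0.67 to -0.19, adjusted p 0.11) and HNRNPA2B1 (-0.28) were lower at 24 h, and HNRNPU (0.19) was higher. For SRSF3 the difference between 100 nM and 50 nM had a 95% confidence interval of -0.45 to -0.04, so the lack of a call does not show that the doses act alike.

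Probes of 1 gene can read different transcripts, and in some members they disagreed. On day 8 with 100 nM, 55 of 63 probes were lower. In a fit of single probes, 22 probes fell and 2 rose at an adjusted p under 0.05, and 15 were called, against 4.46% and 2.45% of all 48316 probes. Both SRSF3 probes fell (-1.01 and -0.94), as did all 4 of SRSF10 (-1.01, -0.84, -0.71 and -0.49) and both of SRSF2 (-0.88 and -0.58). The 2 HNRNPA2B1 probes gave -0.75 (adjusted p 0.00017) and -0.45 (adjusted p 0.34).

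SRSF6 was the widest split. Probe A_33_P3220530, matched to the protein-coding transcript, read 12.89, 12.97 and 12.94 in DMSO and 11.90, 12.07 and 12.26 with 100 nM on day 8, with no overlap. The change was -0.85 (SE 0.12, adjusted p 0.00035), and it was -0.81 and -0.62 with 50 nM for 24 h and 12 h (adjusted p 8e-04 and 0.0089). Probe A_33_P3238455, matched to an SRSF6 transcript that RefSeq lists as non-coding, read 7.69, 7.4 and 7.03 in DMSO and 7.45, 7.32 and 7.80 with 100 nM, a change of 0.15 (SE 0.32, adjusted p 0.94). The mean of both probes, -0.35 (adjusted p 0.34), therefore was not called. The difference between the 2 probes, -1.0 (SE 0.29), had an adjusted p of 0.11 over the 12072 pairs of probes of 1 gene on the array.

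The 2 probes of HNRNPA1 differed in brightness. Probe A_32_P42197, well above background on all 24 arrays, read 15.39, 15.26 and 15.23 in DMSO and 14.60, 14.64 and 14.50 with 100 nM on day 8, with no overlap, and was called lower (-0.71, SE 0.10, adjusted p 0.00034). Probe A_24_P517901, well above background on 19 arrays, read 5.43, 4.96 and 5.36 in DMSO and 5.16, 5.07 and 5.16 with 100 nM (-0.12, SE 0.22, adjusted p 0.93). The difference of 0.59 between the 2 probes had an adjusted p of 0.21.

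HNRNPC encodes a protein that binds runs of U and holds unspliced RNA in the nucleus. Its probes A_24_P178423 and A_32_P142028 rose with 100 nM on day 8, by 0.69 (SE 0.12, adjusted p 0.0014) and 0.44 (SE 0.11, adjusted p 0.023). Probe A_33_P3294017, assigned to the same RefSeq transcript, gave -0.27 (SE 0.09, adjusted p 0.14). The first read 11.05, 11.04 and 11.01 in DMSO and 11.79, 11.84 and 11.57 with 100 nM, while the third read 10.21, 10.08 and 10.02 in DMSO and 9.72, 9.93 and 9.85 with 100 nM. Neither pair of groups overlapped, and the differences from DMSO had opposite signs. The differences of 0.96 and 0.71 between each of the first 2 probes and the third had adjusted p values of 0.00093 and 0.0059, and with 50 nM for 24 h those of 0.80 and 0.58 had adjusted p values of 0.0068 and 0.038. The array files do not give probe sequences, so the part of the transcript read by each probe is not analysed here.

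In HNRNPD, probe A_24_P123245 fell by 0.82 (SE 0.12, adjusted p 3e-04), from 9.53, 9.48 and 9.29 in DMSO to 8.61, 8.72 and 8.51, while A_23_P58353 gave -0.15 (SE 0.10, adjusted p 0.57). The difference of 0.67 had an adjusted p of 0.030. HNRNPDL showed the same form, with -0.74 and -0.04 for its 2 probes and an adjusted p of 0.011 for the difference of 0.70. Of 50 pairs of probes of member genes, 5 differed at an adjusted p under 0.05 with 100 nM on day 8, in HNRNPC, HNRNPD, HNRNPDL and SRSF10, against 1.34% of all pairs. Pairs that differed numbered 2 with 50 nM for 24 h, against 0.787%, 3 with 50 nM for 12 h, against 0.886%, and 0 of 50 with 100 nM on day 15, where 0.00% of all pairs did. Pairs of a gene can share a probe, as those of HNRNPC do, and are not independent. All pairs include those of dim probes, and the share among brighter probes is not given here.

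**Figure D3:**
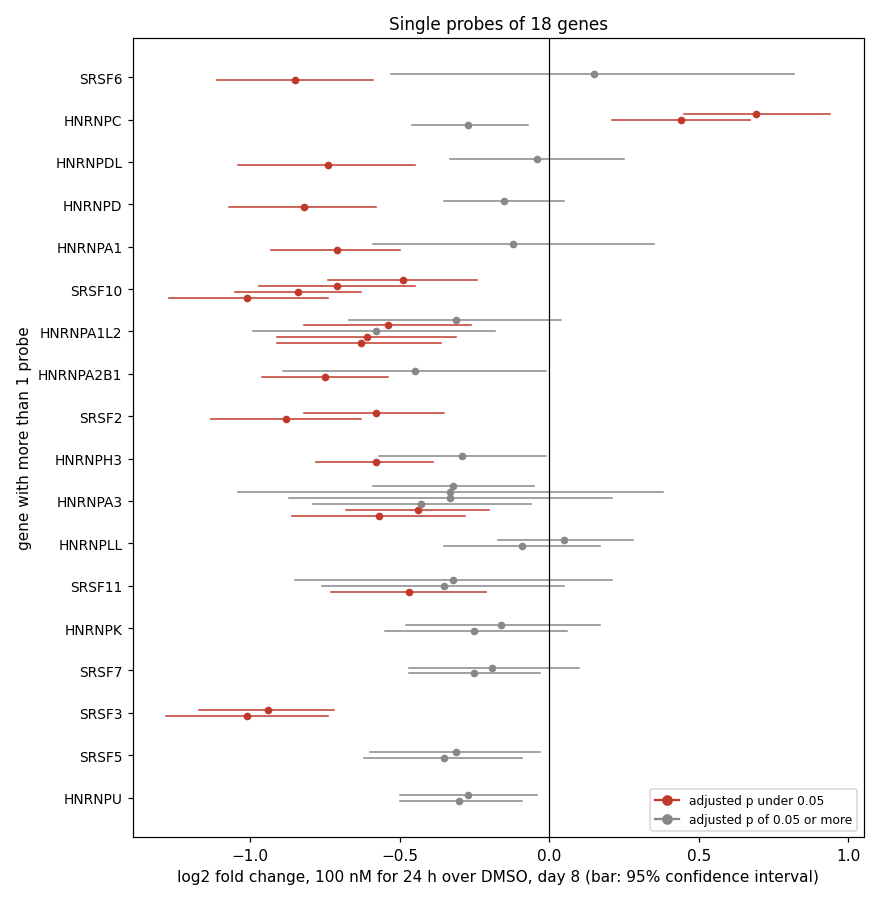
Log2 fold change of each probe (points; bars, 95% confidence interval) with 100 nM for 24 h over DMSO on day 8, for the 18 genes with more than 1 probe, ordered by the distance between their probes. Red marks an adjusted p under 0.05; SRSF6 runs from -0.85 to 0.15 and HNRNPC from -0.27 to 0.69, while both SRSF3 probes lie near -1.

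After wash-out and recovery, no member was called on day 15. With 100 nM, 0 of 34 were called and 3 had an unadjusted p under 0.05 in limma, against 0.00% and 7.21% of all 21239 genes. Neither 50 nM exposure gave a call: 0 members were called after 24 h and 12 h and 0 had an unadjusted p under 0.05, against 3.28% and 3.47% of all genes. Median changes were -0.04, -0.03 and -0.02 for the 3 exposures in this order. With the slide as a replicate block, HNRNPR gave -0.32 after 50 nM for 24 h (SE 0.09, unadjusted p 0.0025, adjusted p 0.99 in limma). The share of all genes under 0.05 with the block is not given here. The 100 nM arrays of day 15 were the most spread around their group means. The SE of a gene was pooled over all groups, so it was not larger for these arrays. Where a gene varied more among them than elsewhere, its p value there may be too small.

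On day 15 SRSF3 measured 11.67, 11.93 and 11.96 in DMSO and 11.82, 11.92 and 11.84 after 100 nM, with 11.63 to 11.93 over the 6 arrays of 50 nM. The change with 100 nM was 0.01 (95% confidence interval -0.20 to 0.21). SRSF10 measured 9.28, 9.36 and 9.37 in DMSO and 9.23, 9.34 and 9.22 after 100 nM (-0.07, -0.23 to 0.08), and SRSF2 10.86, 11.06 and 10.89 against 10.97, 11.18 and 10.86 (0.07, -0.13 to 0.27). DMSO and exposed arrays overlapped in all 3 genes. HNRNPA2B1 gave 12.31, 12.11 and 12.40 in DMSO and 12.17, 12.07 and 12.45 after 100 nM, and HNRNPH1 12.11, 12.75 and 12.46 against 12.39, 12.78 and 12.33.

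The change with 100 nM differed between the days, by an interaction term over all genes, for 4 of 34 members at an adjusted p under 0.05, against 2.44% of all genes. These were SRSF3 (day 15 minus day 8, 0.98, adjusted p 0.00069), SRSF10 (0.69, adjusted p 0.0011), SRSF2 (0.80, adjusted p 0.0030) and HNRNPD (0.47, adjusted p 0.017). Each was lower on day 8 and close to DMSO on day 15. For 50 nM over 24 h the interaction passed in 3 of 34 members (SRSF2, SRSF10 and SRSF3), against 2.16% of all genes, and for 50 nM over 12 h in 2 (SRSF3 and SRSF10), against 1.08%. For HNRNPA2B1 (0.56) and HNRNPH1 (0.64) the interaction with 100 nM had adjusted p values of 0.097 and 0.23. Where the slide entered as a replicate block, 5, 6 and 2 of 34 members passed for 100 nM, 50 nM over 24 h and 50 nM over 12 h, against 2.75%, 2.53% and 1.1% of all genes. The block added HNRNPA2B1 with 100 nM (0.58, adjusted p 0.035) and with 50 nM for 24 h (0.67, adjusted p 0.018, against 0.051 without the block). In the latter it also added HNRNPC (-0.40, adjusted p 0.040 against 0.061) and SRSF12 (-0.47, adjusted p 0.042 against 0.056). In DMSO itself SRSF3, SRSF10 and SRSF2 were lower on day 15 than on day 8, by changes of -0.30, -0.39 and -0.38.

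HNRNPM was the member farthest from DMSO on day 15. Its arrays read 7.23, 6.84 and 6.65 in DMSO and 6.35, 6.77 and 5.59 after 100 nM, so that the groups overlapped through replicate 2 of the exposed group. The change was -0.67 (SE 0.21, 95% confidence interval -1.11 to -0.22, unadjusted p 0.0053, adjusted p 0.56 in limma). This SE rests on a spread pooled over all groups. The SDs on day 15 were 0.6 after 100 nM and 0.29 in DMSO, so the interval may be too narrow for these arrays. Within slides 1, 2 and 3 the change was -0.87, -0.08 and -1.06. Without replicate 2 of 100 nM it was -0.96 with an adjusted p of 0.045, and over all alternatives it ran from -0.96 to -0.24. The lowest array, replicate 3 of 100 nM, is the one with the residual SD of 0.45. The interaction for HNRNPM was 0.26 (SE 0.30, adjusted p 0.77), so a difference between the days was not shown. After 50 nM the arrays read 6.46, 6.47 and 6.73 for 24 h and 6.88, 6.59 and 6.54 for 12 h.

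The other members with an unadjusted p under 0.05 after 100 nM were HNRNPAB (-0.29, adjusted p 0.66) and HNRNPCL1 (-0.41, adjusted p 0.69), the latter near background.

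**Figure D4:**
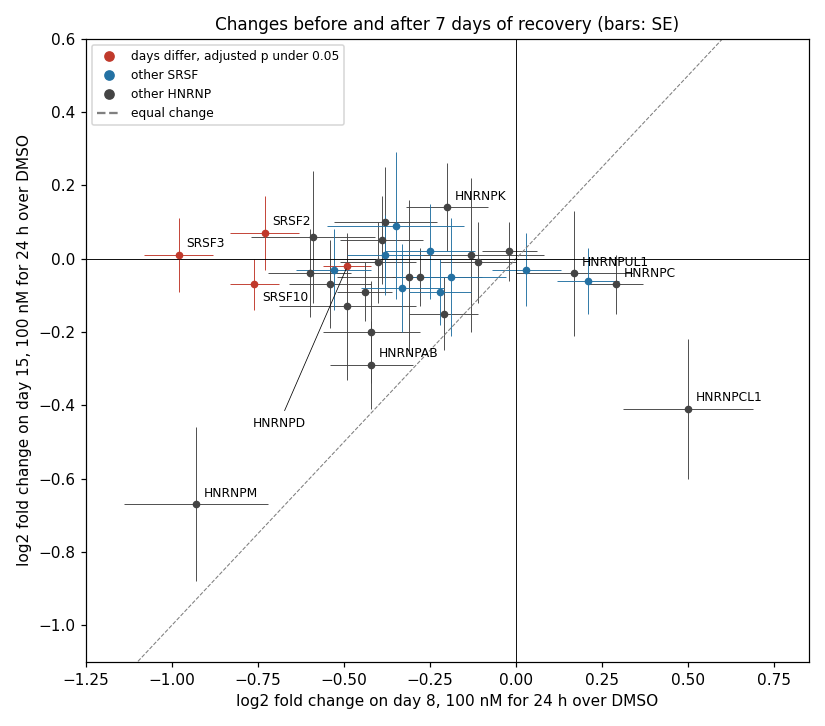
Log2 fold change with 100 nM for 24 h over DMSO on day 8 (x axis) and on day 15 (y axis) for the 34 genes, with bars of 1 SE; the dashed line marks equal changes. SRSF3, SRSF10, SRSF2 and HNRNPD (red), whose changes differed between the days, lie near 0 on day 15, while HNRNPM lies at -0.93 and -0.67.

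Between the DMSO groups, which differ by 7 days of differentiation, members tended to be lower on day 15. Of 34 members, 29 were lower, against 53.9% of all genes, with a median of -0.18 against -0.04. At an adjusted p under 0.05, 12 fell and 1, SRSF12, rose, against 13.2% and 10.1% of all genes, and against 18.6% lower among the genes well above background on all arrays. SRSF6 alone was called, 1 of 34, against 12.2% of all genes.

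SRSF6, which promotes inclusion of exons in transcripts such as that of tau, measured 10.29, 10.18 and 9.99 on day 8 and 9.20, 9.26 and 9.78 on day 15. The groups did not overlap, and the change was -0.74 (SE 0.20, adjusted p 0.0097). Both probes were lower, with changes of -0.68 (adjusted p 0.00088) and -0.81 (adjusted p 0.12). Without DMSO replicate 1 of day 15, the array with the deviating scan name, the change was -0.61 with an adjusted p of 0.059.

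Next came SRSF5 (-0.54, adjusted p 0.0032), SRSF10 (-0.39), HNRNPA3 (-0.40), HNRNPK (-0.38), SRSF1 (-0.38), SRSF2 (-0.38), HNRNPA2B1 (-0.36), HNRNPC (-0.35), SRSF3 (-0.30), SRSF7 (-0.29) and HNRNPLL (-0.25), all at an adjusted p under 0.05. SRSF12 read 9.11, 9.07 and 8.95 on day 8 and 9.35, 9.48 and 9.48 on day 15, a rise of 0.39 (SE 0.09, adjusted p 0.0025). All 3 probes of HNRNPC were lower on day 15 (-0.39, -0.35 and -0.31), unlike their split with rotenone. Over the same interval TOP2A and BIRC5, markers of dividing cells, each changed by -2.62 (adjusted p 0.00012 and 6e-04), and the summed level of the 7 markers of dividing cells, on the log2 scale, went from 10.72 to 11.36 on day 8 to 10.28 to 10.42 on day 15. OLIG2 and TH fell too (-4.0 and -2.94). Of the other dopaminergic markers, SLC6A3 fell (-2.07), while NR4A2 (1.57), KCNJ6 (1.16), LMX1B (0.74) and PITX3 (0.46) rose. These changes had an adjusted p under 0.05 in limma. MBP, MOG and SOX10, on the list with OLIG2, changed by 0.1, 0.37 and 0.11 without passing that threshold. The part of all these shifts in the changes of the splicing genes was not tested. With 100 nM on day 8, 0 of 44 marker genes were called in limma, and 2, the neuronal markers MAP2 (-0.57, adjusted p 0.0028) and SNAP25 (-0.30, adjusted p 0.041), fell at an adjusted p under 0.05. Their part in the changes of the splicing genes was not tested. The summed levels of the 8 neuronal markers were 17.66 to 17.85 in DMSO and 17.60 to 17.62 with 100 nM, and those of dividing-cell markers were 10.63 to 10.88 with 100 nM.

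Other genes of the splicing machinery were taken from a list of 103, all of which were tested. With 100 nM on day 8, 7 were called, all lower, against 3.45% of all genes. At an adjusted p under 0.05, 22 fell and 1 rose, against 5.41% and 4.07% of all genes. Among genes well above background on all arrays, 8.25% fell. The median of the list was -0.15, against -0.02 for all genes. The list splits into 48 core factors (3 called, median -0.16), 18 relatives of SR proteins and their regulators (1 called, median -0.13), 18 hnRNPs under other symbols and their relatives (2 called, median -0.14) and 19 regulators of neuronal and tissue splicing (1 called, median -0.14). All these calls were lower, and of all genes 2.02% were called lower. The medians of all 4 groups were closer to 0 than that of the hnRNP and SR genes. No test of this difference was made.

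The called genes were RALYL, a relative of the hnRNP RALY (-1.32, SE 0.14), the paired RNA helicases DDX17 (-1.31, SE 0.17) and DDX5 (-0.80, SE 0.13), EWSR1 (-0.88, SE 0.12), TRA2A, an SR-like activator of splicing (-0.72, SE 0.11), RBM25 (-0.69, SE 0.09) and MBNL2, which promotes adult splicing patterns (-0.61, SE 0.12). KHDRBS3, a neuronal splicing regulator, rose by 0.52 (SE 0.09, adjusted p 8e-04) with 100 nM and by 0.59 (SE 0.09, adjusted p 0.00046) with 50 nM for 12 h. Of the list, 7 were called with 50 nM for 24 h, all lower, against 2.80% of all genes. With 50 nM for 12 h, 4 were called lower and 2 higher, KHDRBS3 and KHDRBS2, against 1.75%. On day 15, 0 of 103 were called in limma with any exposure, and 4, 3 and 4 had an unadjusted p under 0.05 after 100 nM, 50 nM for 24 h and 50 nM for 12 h, against 7.21%, 3.28% and 3.47% of all genes.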

How the data were processed

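Each array's scanner output, deposited by the authors, gives a spot's median intensity with its local background, outlier flags and marks for spots well above background. They also deposited normalized log2 values in a separate table. After the methods of the study, median intensities were corrected with normexp, quantile normalized over 24 arrays and adjusted by ComBat, which the study applied to a batch of arrays. The normexp offset of 0, slide 1 as that batch and the groups as covariates of ComBat were chosen here and are not given in the sources used here. A probe was kept if its signal exceeded the 95th percentile of negative control spots by a factor of 1.1 on 3 or more arrays. Flagged spots were left out, which left 0 member values missing. Replicate spots were averaged first, then all probes assigned to one gene. The labels give Feature Extraction 11.5.1.1, and the headers of slide 2 give 12.0.0.7. Gene names came from matching accessions, without version, to RefSeq (GRCh38.p14), and 30275 of 50599 probes received one. The array was designed on another build, so no probe positions are given.

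Groups were compared with limma 3.58.1 (lmFit and eBayes, two-sided, 1 fit of all arrays with 16 residual degrees of freedom) in R 4.3.3; figures used matplotlib 3.10.9 in Python 3.11.15. Members and gene lists were chosen with earlier results of these data known. Named are members called in a comparison of rotenone with DMSO, members with the largest called change between days, the 3 brightest uncalled members of each family (HNRNPA1L2, HNRNPK and HNRNPDL; SRSF5, SRSF9 and SRSF4), HNRNPM, and called genes of the splicing list; others were named after their values were seen. On simulated data for 100 nM on day 8 (200 of 21303 genes changed, 5 simulations), 72.0% of changes of 1 and 88.4% of 1.5 on the log2 scale were recovered and 7.08% of calls were false; with the slide as a block instead of ComBat these were 66.4%, 85.0% and 3.77%. Without change, 6.69% of genes had a p under 0.05 after ComBat and 5.03% with the block, so p values after ComBat were somewhat too small in the simulations. The simulated arrays had independent noise and a shift of slide 1 only, with no difference between slides 2 and 3. How far this holds for the measured arrays is therefore not known. The replicate number is the slide number, each slide holding 1 array of each group. In values without ComBat, which still hold the shift of slide 1, deviations of arrays from their group means were correlated within 1 number. This held in all 84 pairs, the lowest at 0.171 (median 0.458, against a median of -0.354 in 168 other pairs). Taking deviations from means of 3 arrays itself makes the other pairs negative, so -0.354 is no neutral reference. Pairing after ComBat was not measured in this way. The number of arrays limits the precision. Alternatives were the processed signal, an offset of 50, 75th percentile scaling, no ComBat, slides 2 and 3 alone, the slide as a block, no or a stricter filter, the brightest probe, only the arrays compared, the authors' values, each array left out, and, added after seeing the data, a fit of single probes.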

Additional observations from a re-analysis of the deposited data

Results flagged for a closer look

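The change with rotenone differed between day 15 and day 8 by a test of the interaction in SRSF3, SRSF10, SRSF2 and HNRNPD, which were all lower on day 8 and nearer to DMSO on day 15. With 100 nM for 24 h the differences, day 15 minus day 8 on the log2 scale, were 0.98 for SRSF3 (SE 0.14, adjusted p 0.00069), 0.69 for SRSF10 (SE 0.10, adjusted p 0.0011), 0.80 for SRSF2 (SE 0.14, adjusted p 0.0030) and 0.47 for HNRNPD (SE 0.10, adjusted p 0.017). For 50 nM over 24 h they were 0.77 for SRSF2 (adjusted p 0.0059), 0.54 for SRSF10 (adjusted p 0.0091) and 0.66 for SRSF3 (adjusted p 0.015), against 2.16% of all genes at an adjusted p under 0.05. For 50 nM over 12 h they were 0.88 for SRSF3 (adjusted p 0.0046) and 0.49 for SRSF10 (adjusted p 0.029), against 1.08% of all genes. With the slide as a replicate block, HNRNPA2B1 also passed with 100 nM (adjusted p 0.035), and HNRNPA2B1, HNRNPC and SRSF12 with 50 nM over 24 h (adjusted p 0.018, 0.040 and 0.042). The interactions of HNRNPC and SRSF12 were negative (-0.40 and -0.47). The 3 exposures of a day share their DMSO arrays, so that these are not independent of each other. The groups hold 3 arrays each, too few for the test of single deviating samples.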

How the results depend on the processing

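No alternative reversed any of the 14 called results or the change of HNRNPM with 100 nM on day 15. This statement does not cover the other changes reported. With 100 nM on day 8, the count of 6 called members became 2 (SRSF3 and SRSF10) with slides 2 and 3 alone and 11 when 1 called probe sufficed, and ran from 4 to 7 when 1 array was left out. With 50 nM for 24 h, the count of 5 became 3 with an offset of 50, with 75th percentile scaling and with the authors' values, 1 with slides 2 and 3 alone, and 2 to 5 when 1 array was left out (2 without DMSO replicate 1). With 50 nM for 12 h, the count of 2 became 1 without ComBat, with slides 2 and 3 alone and with only the arrays compared, 4 with the brightest probe and 6 when 1 called probe sufficed. It ran from 1 to 3 when 1 array was left out, and was 1 without replicate 1 or 2 of DMSO or replicate 1 or 3 of 50 nM for 12 h. With 100 nM on day 15 the count of 0 ran to 1, HNRNPM, without replicate 2 of 100 nM. Between the DMSO groups the count of 1 became 2 with 75th percentile scaling and 0 with slides 2 and 3 alone, and ran from 0 (without DMSO replicate 1 of day 15) to 2. The causes were not tested, except that fewer arrays or, for single probes, more values were tested. The share of all genes called under each alternative is not given beside these counts. They therefore do not show whether the members shifted more than other genes.

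SRSF3 kept its call in all 3 comparisons of day 8 under all alternatives run, with changes from -1.03 to -0.93 for 100 nM, and SRSF10 kept its call with 100 nM. HNRNPA2B1, HNRNPH1, HNRNPM, SRSF2, SRSF6 and SRSF10 with 50 nM lost theirs under some. Of 236 values for the 14 called results, 190 kept their call and 46 lost it. The slide as a replicate block gave the same counts of called members, 6, 5, 2, 0 and 1. At an adjusted p under 0.05, whatever the fold change, members that fell on day 8 numbered 16, 9 and 10, against 15, 8 and 7 without the block. The order is 100 nM, 50 nM for 24 h and 50 nM for 12 h. Without the block 5.41%, 4.36% and 2.85% of all genes fell, and the shares with the block are not given here. The interaction with 50 nM for 24 h passed in 6 members against 3, and in 2.53% of all genes against 2.16%. With the processed signal the median of all genes was 0.10 with 100 nM on day 8, and that of the members -0.37. Precision was limited by 3 arrays a group. On day 15 the 100 nM arrays were the most spread, which the SE, pooled over all groups, does not show.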
